A study of Homo sapiens with 15 samples.

Results

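The comparison described here set 3 bead arrays of MDA-MB-436 cells treated with 100 nM AG014699 against 3 arrays of the same cells treated with DMSO, the solvent of the drug. The 6 arrays were chosen by their titles, out of 15 arrays in the study. The other 9 carried 10 nM AG014699, LY294002 alone or both agents with AG014699 at 100 nM, 3 of each kind. Treatment lasted 7 days in every group. MDA-MB-436 is a human breast cancer line of basal, mesenchymal type with a mutated BRCA1 gene, so the DMSO cells carry that defect as well. AG014699, also named rucaparib, inhibits PARP1 and its relatives, and LY294002 inhibits PI3K, a kinase of growth factor signalling. All cells came from 1 line, and the labels did not say whether the 3 arrays of a group stood for separate cultures, so the p-values rest on a spread among arrays that could be technical only. In such bulk RNA fewer cells of a kind and less RNA per cell cannot be told apart.

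PARP1 binds breaks in DNA and builds chains of ADP-ribose from NAD on itself and on nearby proteins, which recruits repair factors. Inhibitors block the chain building and hold PARP1 on DNA, and the lesions that follow at replication forks are repaired by homologous recombination, which needs BRCA1. Cells without working BRCA1 are therefore sensitive to these drugs. Cells that live on under prolonged DNA damage are known to alter what they secrete, their surface receptors and their metabolism, and the gene groups below follow that order.

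The signal of a gene is given as a normalized log2 value, and a change is the mean of the 3 arrays at 100 nM minus the mean of the 3 DMSO arrays, with the standard error (SE) of a limma fit to all 15 arrays. The background correction with an added offset makes changes of dim genes smaller than a ratio of concentrations. Genes with a Benjamini-Hochberg adjusted p under 0.05 over 12302 genes were called, and rose, fell and changed are used of called genes. Of these genes 2648 were called, which is 21.5%. Higher calls made up 10.7% and lower calls 10.8%. A change of at least 2-fold was called for 550 genes (4.47%), of which 325 were higher (2.64%) and 225 lower (1.83%). The 2-fold count depended on the background correction and was 193 with quantile normalization alone. Signals of the groups did not overlap for 2569 of the called genes and for 36.0% of all genes. The median change over all genes was -0.03. An unadjusted p under 0.05 was reached by 4214 genes.

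Per array 19594 to 20553 probes were detected. Log2 signals correlated at 0.983 to 0.99 across genes within a group and at 0.965 to 0.973 between the groups, and genes are not independent replicates. Array 1 of 100 nM AG014699 differed from the others in being deposited as whole numbers. VIM, CAV1, CD44 and AXL, markers of mesenchymal breast lines, were detected on all 6 arrays. SPARC and FN1 did not enter the tested genes. The oestrogen receptor gene ESR1 was detected on 1 DMSO array and on 0 arrays of 100 nM. ERBB2, the HER2 receptor gene, was detected on all 6 and fell by 0.67 (SE 0.11, adjusted p = 0.000775). Of 30 markers of fibroblasts, leukocytes, endothelium, fat and red cells 5 entered the tested genes, and their mean log2 signal was 5.81 to 6.13 on the DMSO arrays and 6.31 to 6.50 at 100 nM. Calls were made for 2 of them, both higher, and their part in the results was not tested. The leptin gene LEP was higher by 0.56 (SE 0.15, adjusted p = 0.0129), a call that ended without array 2 of 100 nM (adjusted p = 0.0543) and without DMSO array 2 (adjusted p = 0.0638). The myeloid integrin gene ITGAM was detected on 0 DMSO arrays and all 3 at 100 nM, at least 1.24-fold higher, and the call ended without array 1 of 100 nM (adjusted p = 0.0572), without DMSO array 1 (adjusted p = 0.0724), without the arrays numbered 1 of all groups (adjusted p = 0.173) with quantile normalization alone (adjusted p = 0.07, a change of 0.26 on the log2 scale) and with the signals as deposited (adjusted p = 0.071). RNAs without a poly(A) tail also differed between the groups. RN7SK, which holds the elongation factor P-TEFb inactive, rose by 2.21 (SE 0.18), the small nucleolar RNA SNORD3A by 2.20 (SE 0.16) and the 5S ribosomal RNA RNA5S9 by 2.25 (SE 0.17), each with non-overlapping groups. The part of these RNAs in the results below was not tested.

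**Figure D1:**
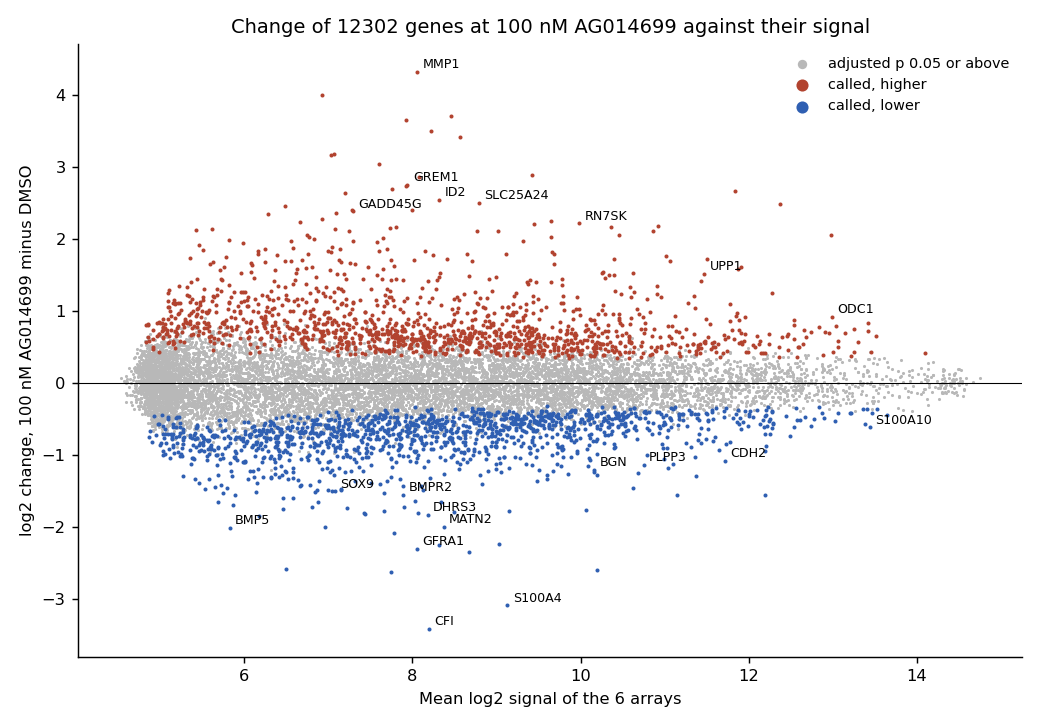
Each point is 1 of 12302 genes, with the mean log2 signal of the 6 arrays on the x axis and the log2 change from DMSO to 100 nM AG014699 on the y axis. Red and blue points are called higher and lower (limma, adjusted p under 0.05), grey points are not called, and the called genes range from dim ones such as BMP5 to S100A10 among the brightest.

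Among the 30 largest rises were a secreted antagonist and nuclear regulators of growth and stress signalling. The genes described are a selection of these 30, and the largest rise is not among them. All 30 were taken from called genes whose groups did not overlap. Groups that stood apart were therefore a condition of the choice and not a result. GREM1 encodes gremlin, which binds bone morphogenetic proteins (BMPs) and keeps them from their receptors. Its log2 signal was 6.63, 6.47 and 6.59 on the DMSO arrays and 9.49, 9.06 and 9.40 at 100 nM. All 3 treated arrays stood far above all 3 DMSO arrays, a rise of 2.75 (SE 0.22, adjusted p = 7.05e-07). ID2, an inhibitor of basic helix-loop-helix transcription factors, was at 6.83, 6.84 and 7.47 with DMSO and at 9.60, 9.48 and 9.68 with the drug. The groups did not overlap, although DMSO array 3 was higher than the other two, and the rise was 2.54 (SE 0.17, adjusted p = 1.18e-07). GADD45G, a stress gene that acts on MAP kinase signalling, went from 6.0, 6.0 and 6.30 to 8.40, 8.40 and 8.63, and DMSO values lay within 0.30 of each other. That was a rise of 2.38 (SE 0.15, adjusted p = 6.29e-08).

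Genes of membranes, matrix and lipid metabolism stood beside them. DHRS2, a short-chain dehydrogenase of carbonyl compounds, was at 6.63, 6.57 and 6.45 with DMSO and at 9.08, 9.24 and 9.54 at 100 nM. The lowest treated array was above the highest DMSO array by more than 2 log2 units, and DHRS2 rose by 2.74 (SE 0.17, adjusted p = 4.8e-08). SLC25A24, a carrier that exchanges ATP for phosphate across the inner mitochondrial membrane, was at 7.41, 7.49 and 7.73 and then at 9.83, 9.87 and 10.42, a rise of 2.50 (SE 0.24, adjusted p = 4.03e-06). Treated array 3 was the highest, and no treated array came near the DMSO range. LAMB3, the beta 3 chain of the basement membrane protein laminin-332, read 5.71, 6.0 and 6.03 with DMSO and 8.51, 8.15 and 8.17 with the drug and rose by 2.36 (SE 0.15, adjusted p = 4.8e-08). GPRC5C, a receptor without a known ligand, rose by 2.40 (SE 0.13) from 6.92, 6.69 and 6.78 to 9.29, 9.04 and 9.25. CYP4B1, a cytochrome P450, was at 5.11, 4.78 and 5.88 with DMSO, where 2 of 3 arrays detected it, and at 7.34, 7.83 and 7.94 at 100 nM. Its groups did not overlap, but the DMSO arrays differed among themselves more than those of the genes above, and the rise was 2.45 (SE 0.30, adjusted p = 3.99e-05). The membrane protein gene LSMEM1 rose by 2.35 (SE 0.15). All these calls were kept when any 1 of the 6 arrays was left out.

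A short SREBP motif, CACCCCA on either strand, gives letters of the sites of the sterol-regulated factors. Among the 30 largest rises 18 had a promoter window, and 3 of these held the motif. The promoter windows of GREM1 and ID2 are shown as 2 of them. Those of CCL3L3 and CCL3, 2 chemokine genes that also rose (3.70, SE 0.13, and 3.49, SE 0.22), hold a TATA box and are near-identical copies, so that their probes may share signal and the values of each are uncertain. Each window runs from 250 bases before to 50 bases after the transcription start in RefSeq (GRCh38.p14), 5′ to 3′ on the gene's strand, with the motif in capitals. They lie at chr15:32717754-32718053 on the plus strand (GREM1), chr2:8681806-8682105 on the plus strand (ID2), chr17:36196709-36197008 on the minus strand (CCL3L3) and chr17:36090094-36090393 on the minus strand (CCL3). The match begins 233 bases before the start in GREM1, 210 in ID2 and 29 in both chemokine genes.
GREM1: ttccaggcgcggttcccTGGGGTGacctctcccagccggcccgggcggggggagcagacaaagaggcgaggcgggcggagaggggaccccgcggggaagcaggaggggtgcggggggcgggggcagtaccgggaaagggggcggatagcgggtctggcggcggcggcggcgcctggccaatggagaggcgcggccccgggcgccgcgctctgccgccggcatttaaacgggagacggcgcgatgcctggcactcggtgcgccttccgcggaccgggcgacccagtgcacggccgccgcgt
ID2: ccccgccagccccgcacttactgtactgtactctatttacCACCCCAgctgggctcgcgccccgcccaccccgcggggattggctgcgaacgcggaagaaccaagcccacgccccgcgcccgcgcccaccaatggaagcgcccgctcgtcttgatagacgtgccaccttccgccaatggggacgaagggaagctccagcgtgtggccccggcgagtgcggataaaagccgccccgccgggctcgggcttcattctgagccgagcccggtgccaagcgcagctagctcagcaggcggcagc
CCL3L3: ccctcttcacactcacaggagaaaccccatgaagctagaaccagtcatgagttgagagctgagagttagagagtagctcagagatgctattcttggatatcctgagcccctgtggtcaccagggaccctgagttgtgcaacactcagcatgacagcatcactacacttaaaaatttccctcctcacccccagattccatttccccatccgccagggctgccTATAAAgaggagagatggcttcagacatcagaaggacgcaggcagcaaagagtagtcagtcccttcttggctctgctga
CCL3: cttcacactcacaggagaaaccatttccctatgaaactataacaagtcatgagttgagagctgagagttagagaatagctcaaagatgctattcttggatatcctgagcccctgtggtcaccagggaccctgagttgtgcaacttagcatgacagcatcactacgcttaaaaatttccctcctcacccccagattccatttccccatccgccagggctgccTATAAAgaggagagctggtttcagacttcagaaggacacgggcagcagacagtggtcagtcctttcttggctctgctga

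**Figure D2:**
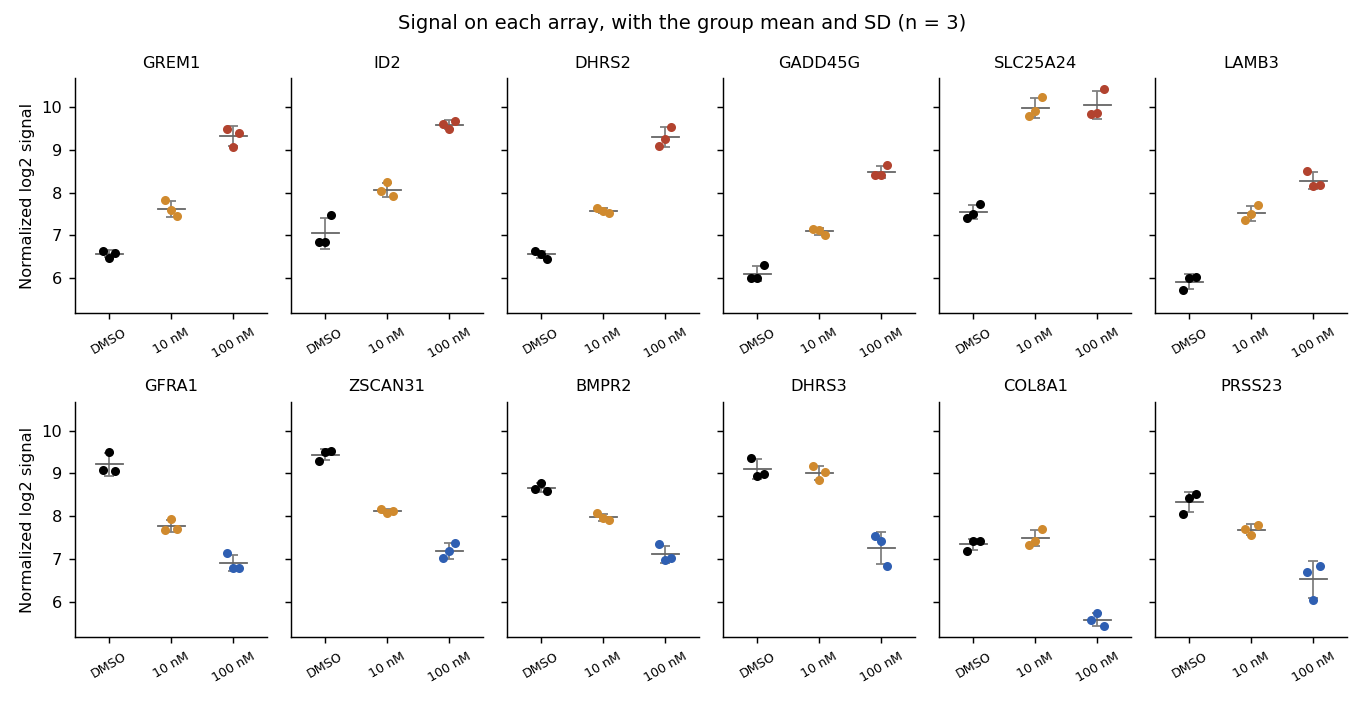
Normalized log2 signal of 12 genes on each array of DMSO, 10 nM and 100 nM AG014699 (points), with the group mean (bar) and SD (whiskers, n = 3). In the upper row the 100 nM arrays stand above all DMSO arrays, and in the lower row below them. For all genes but BMPR2 this was a condition of the choice. The 10 nM arrays of SLC25A24 stand with the 100 nM arrays, and those of DHRS3 and COL8A1 near DMSO.

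The 30 largest falls held receptors, matrix proteins and transcriptional regulators. Those described are again a selection, without the largest fall, and groups without overlap were again a condition of the choice. GFRA1, the receptor subunit for the neurotrophic factor GDNF, was at 9.07, 9.51 and 9.05 with DMSO and at 7.13, 6.79 and 6.80 at 100 nM. No treated array reached the DMSO range, and the gene fell by 2.30 (SE 0.18, adjusted p = 6.62e-07). ZSCAN31, a zinc finger protein gene, fell by 2.25 (SE 0.12, adjusted p = 1.66e-08) from 9.29, 9.51 and 9.52 to 7.02, 7.18 and 7.37, with arrays of each group close together. DHRS3, an enzyme that reduces retinal to retinol, fell by 1.83 (SE 0.19) from 9.37, 8.94 and 8.99 to 7.53, 7.43 and 6.83. Treated array 3 was the lowest, and the groups were apart by more than 1 log2 unit. ID1, the close relative of ID2, moved the other way and fell by 1.78 (SE 0.19, adjusted p = 1.46e-05), from 8.60, 8.66 and 8.42 to 7.12, 6.66 and 6.55. PRICKLE1, a gene of planar cell polarity, fell by 1.74 (SE 0.17), and TNS3, which links integrins to actin, by 1.78 (SE 0.16). PLAAT4, a phospholipase, fell by 1.66 (SE 0.20).

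Genes of secreted and matrix proteins were among the 30 largest falls. MATN2, an adaptor of matrix filaments, read 9.23, 9.52 and 9.36 with DMSO and 7.17, 7.55 and 7.39 at 100 nM and fell by 2.00 (SE 0.21). LOXL4, an enzyme that cross-links collagen, was at 8.50, 8.25 and 8.30 and then at 6.17, 6.59 and 6.83. Treated array 3 was the highest of its group and still below every DMSO array, and the fall was 1.82 (SE 0.21, adjusted p = 2.03e-05). PCOLCE, the enhancer of the proteinase that trims procollagen, fell by 1.79 (SE 0.19). COL8A1, a chain of short network collagen, fell by 1.76 (SE 0.16) from 7.18, 7.42 and 7.42 to 5.57, 5.74 and 5.43, with a spread between arrays under 0.4 in either group. COL18A1, the source of endostatin, fell by 1.73 (SE 0.16), and OLFML2A, a secreted olfactomedin-like protein, by 1.72 (SE 0.19). PRSS23, a secreted serine protease, was at 8.06, 8.42 and 8.51 with DMSO and at 6.71, 6.04 and 6.83 with the drug, where array 2 was lowest, and fell by 1.81 (SE 0.22). NREP, a small intracellular protein of regenerating neurons and of fibroblasts, fell by 2.01 (SE 0.22). SAA2 fell by 1.65 (SE 0.18), and its probe may also report SAA1, a near-identical acute phase gene.

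Windows of 3 genes that fell are shown for the NF-kB motif (GGGAATT or GGGACTT, S100A9 and LOXL4) and the AP-1 motif (TGANTCA, NREP), again in capitals. S100A9 encodes a calcium-binding alarm protein and fell by 2.60 (SE 0.16). The windows lie at chr1:153357604-153357903 on the plus strand (S100A9), chr10:98268145-98268444 on the minus strand (LOXL4) and chr5:111976883-111977182 on the minus strand (NREP), and the match begins 178, 210 and 120 bases before the start.
S100A9: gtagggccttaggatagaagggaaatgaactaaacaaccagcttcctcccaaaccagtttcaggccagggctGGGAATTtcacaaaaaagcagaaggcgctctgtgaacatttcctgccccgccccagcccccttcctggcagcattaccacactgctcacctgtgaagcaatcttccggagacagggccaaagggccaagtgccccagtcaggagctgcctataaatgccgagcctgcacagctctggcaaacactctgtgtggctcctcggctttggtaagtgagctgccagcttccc
LOXL4: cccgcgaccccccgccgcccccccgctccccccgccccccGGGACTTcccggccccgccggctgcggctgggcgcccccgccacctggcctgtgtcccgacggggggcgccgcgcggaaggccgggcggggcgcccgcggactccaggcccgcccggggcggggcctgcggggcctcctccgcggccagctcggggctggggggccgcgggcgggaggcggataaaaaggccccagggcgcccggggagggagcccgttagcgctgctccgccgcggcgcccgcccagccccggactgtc
NREP: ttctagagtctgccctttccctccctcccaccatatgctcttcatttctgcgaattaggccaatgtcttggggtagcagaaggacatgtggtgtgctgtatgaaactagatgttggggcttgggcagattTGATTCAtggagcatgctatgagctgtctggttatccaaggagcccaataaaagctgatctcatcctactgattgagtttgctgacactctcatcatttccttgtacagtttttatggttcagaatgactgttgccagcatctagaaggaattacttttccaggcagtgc

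Short motifs were counted in the windows of all tested genes with an entry in the promoter table, 9812 of 12302 genes, on both strands. Coverage was unequal, with windows for 212 of the 325 genes called at least 2-fold higher and for 186 of the 225 lower. The TATA box, TATAAA, was in 43 of 212 windows of genes called at least 2-fold higher (20.3%), in 13 of 186 of those at least 2-fold lower (6.99%) and in 6.05% of all tested windows. The AP-1 motif was in 29 windows of the higher genes (13.7%), in 12 of the lower genes (6.45%) and in 4.62% of all. The E-box CACGTG was in 13.2% of the higher, 4.3% of the lower and 10.2% of all windows. The E2F motif (TTGGCGC or TTCCCGC) was in 8.49% and 8.06% against 14.6% of all. NF-kB, SREBP, CRE (TGACGT) and FOXO (TGTTTAC) motifs were in 8.49%, 7.55%, 11.8% and 2.36% of the higher genes against 8.74%, 7.3%, 12% and 2.24% of all windows. In the lower genes these 4 motifs were in 8.06%, 6.99%, 7.53% and 2.69%. CCAAT, the letters of NF-Y, was in 43.4% of the higher and 32.8% of the lower windows, beside 37.0% of all. Stretches that match different motifs may overlap. Among all 27305 windows of the promoter table, tested or not, the TATA box was in 12% and the AP-1 motif in 7.76%. The E-box was in 7.43% of them and the E2F motif in 9.33%, so that the E2F shares of higher and lower genes lay nearer to that share than to the tested one. Among the 30 largest rises, of which 18 had a window, 8 held a TATA box and 0 the AP-1 motif. A match describes letters in a window and says nothing of binding.

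For the AP-1 motif the windows of PNLIPRP3 and CXCL8 are shown as well, 2 rises of at least 2-fold that hold it. They were chosen after the shares above were seen, and larger rises may hold it too. CXCL8 encodes interleukin 8, which attracts neutrophils, and rose by 2.05 (SE 0.13). PNLIPRP3, a lipase-like gene, was undetected on the DMSO arrays and at least 2.59-fold higher at 100 nM. The windows lie at chr10:116427597-116427896 (PNLIPRP3) and chr4:73740319-73740618 (CXCL8), both on the plus strand, and the match begins 104 and 137 bases before the start.
PNLIPRP3: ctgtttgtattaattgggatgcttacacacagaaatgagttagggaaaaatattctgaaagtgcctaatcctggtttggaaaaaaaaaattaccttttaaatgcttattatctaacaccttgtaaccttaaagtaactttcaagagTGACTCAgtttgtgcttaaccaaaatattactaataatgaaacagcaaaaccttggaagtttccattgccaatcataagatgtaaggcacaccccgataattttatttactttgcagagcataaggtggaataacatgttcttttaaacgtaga
CXCL8: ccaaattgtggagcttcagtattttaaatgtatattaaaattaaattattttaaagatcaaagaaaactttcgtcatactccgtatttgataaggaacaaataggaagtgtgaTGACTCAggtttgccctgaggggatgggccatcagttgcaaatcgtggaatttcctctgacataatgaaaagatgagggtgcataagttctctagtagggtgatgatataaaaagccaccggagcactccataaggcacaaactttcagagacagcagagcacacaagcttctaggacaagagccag

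**Figure D3:**
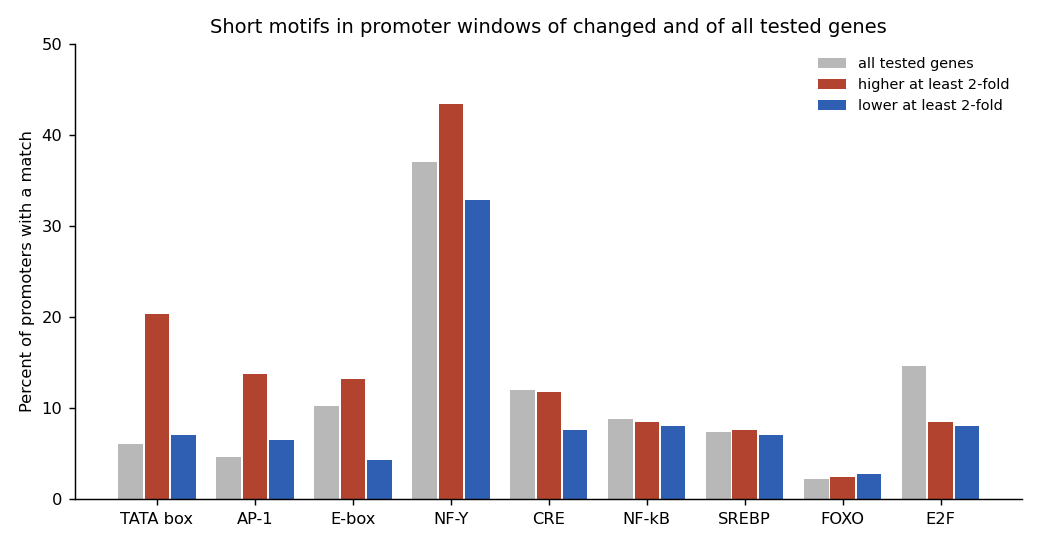
Percent of promoter windows of 300 bases with at least 1 match to each short motif, among all tested genes (grey), genes called at least 2-fold higher (red) and at least 2-fold lower (blue). TATA box and AP-1 letters were most often found in the windows of higher genes, and E2F letters in those of all tested genes.

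Some genes crossed the detection limit. Detection on all 3 arrays of 100 nM at p under 0.01 and on 0 DMSO arrays at p under 0.05 was found for 34 genes (0.276% of all), and the reverse for 20 genes (0.163%). With a limit of 0.05 for both groups the numbers were 82 and 57. SNAI2, a transcription factor of the epithelial to mesenchymal transition, was undetected at 5.02, 4.84 and 4.86 with DMSO and stood at 6.85, 6.43 and 6.70 at 100 nM, at least 2.91-fold higher (adjusted p = 5.69e-05). MME, the surface peptidase neprilysin, was undetected at 4.88, 5.09 and 5.04 and stood at 6.50, 6.32 and 6.51, at least 2.51-fold higher. ADTRP, a hydrolase of fatty acid esters, was at least 2.48-fold higher and SBSN, a secreted protein of stratified epithelium, at least 2.46-fold. ALOX5AP, which presents arachidonic acid to the leukotriene-forming enzyme, was at least 2.46-fold higher. In the other direction BMP5, a BMP ligand, was at 6.88, 6.68 and 6.94 with DMSO and undetected at 4.78, 4.70 and 4.99 at 100 nM, at least 3.32-fold lower (adjusted p = 6.34e-07). UNC5A, a receptor for the guidance factor netrin, was at least 3.06-fold lower. CTNNBIP1, an inhibitor of beta-catenin, was at least 2.66-fold lower, and CPA4, a secreted carboxypeptidase, at least 1.98-fold.

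Few of the brightest genes were called. Of the 200 genes with the highest DMSO signal 13 were called (6.5%, beside 21.5% of all genes), 2 higher and 11 lower. S100A10, a partner of annexin A2 at the membrane, fell by 0.62 (SE 0.12, adjusted p = 0.00228) from 13.74, 13.69 and 13.81 to 13.20, 13.24 and 12.96. H3P6, which the array annotation names as a histone H3 pseudogene, fell by 0.58 (SE 0.11), and its probe may report other H3.3 copies. PHGDH, the first enzyme of serine synthesis, fell by 0.42 (SE 0.11), a call that ended without the arrays numbered 1 of all groups (adjusted p = 0.087) and in a fit of the 6 arrays alone (adjusted p = 0.0748). Its signals were 13.43, 13.33 and 13.54 with DMSO and 12.96, 13.02 and 13.06 at 100 nM, apart by a small gap.

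A list was made of ligands, receptors, antagonists and targets of the transforming growth factor beta (TGF-beta) and BMP family. Among its members detected in both groups GREM1 was the largest rise and BMPR2 the largest fall. ID1 and BMP5, described above, fell more but were not in the list. Of 28 measured members of this list 4 rose and 9 fell, which is 46.4% called beside 21.5% of all genes, with a median change of -0.30 beside -0.03. Here and below the lists were written with earlier results of these data known. Their shares of called members are therefore descriptions and not tests of the lists. Receptors were called in both directions. BMPR2, the type II BMP receptor, was at 8.64, 8.78 and 8.59 with DMSO and at 7.34, 6.97 and 7.01 at 100 nM. The groups were apart by more than 1 log2 unit, and it fell by 1.56 (SE 0.16, adjusted p = 6.11e-06). TGFBR2, the type II TGF-beta receptor, fell by 0.62 (SE 0.11), and TGFBR3, the co-receptor betaglycan, by 0.86 (SE 0.17). ACVR1B, an activin type I receptor, was higher by 0.57 (SE 0.16, adjusted p = 0.0199), a call that ended without array 2 of 100 nM (adjusted p = 0.0721) and without DMSO array 2 (adjusted p = 0.092). Among ligands TGFB2 was undetected on all 3 arrays at 100 nM and at least 1.76-fold lower (adjusted p = 0.00134), and GDF5 at least 1.15-fold lower. BMP1, which despite its name is a proteinase that trims procollagen, fell by 0.94 (SE 0.16). BAMBI, a decoy receptor of the family, rose by 0.95 (SE 0.14, adjusted p = 0.000281) from 9.88, 9.91 and 10.16 to 10.75, 11.04 and 11.01. FSTL1, a secreted follistatin-like antagonist, changed by -0.58 (SE 0.15, adjusted p = 0.0144), a call that ended in a fit of the 6 arrays alone (adjusted p = 0.0697), without array 2 or 3 of 100 nM (adjusted p = 0.0531 and 0.0619) and without DMSO array 2 (adjusted p = 0.0538). INHBB at -0.27, ACVR1 at -0.10 and BMP7 at 0.04 did not pass the test.

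Notch signalling, in which neighbouring cells pass on fate decisions, had 7 members higher and 2 lower of 25 measured. That is 36% called beside 21.5% of all genes, with a median change of -0.09 beside -0.03. The target genes HES1 and HEY2, both transcriptional repressors, rose by 1.09 (SE 0.16, adjusted p = 0.00024) and 1.25 (SE 0.18). HES1 was at 5.66, 5.58 and 5.63 with DMSO and at 6.75, 6.68 and 6.72 with the drug, and the arrays of each group differed by less than 0.1. The ligand gene DLL1 rose by 0.78 (SE 0.16) and the ubiquitin ligase gene DTX3 by 1.14 (SE 0.20). LFNG, which adds sugars to Notch receptors, fell by 0.58 (SE 0.11), and another ligand gene of the list fell by 0.75 (SE 0.17). The receptor genes NOTCH1, NOTCH2 and NOTCH3 were not called, at -0.09, 0.20 and -0.21.

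In the Wnt list 0 members rose and 5 of 25 measured fell (20%, beside 21.5% of all genes). LRP5, a Wnt co-receptor, fell by 0.88 (SE 0.14, adjusted p = 0.000345), from 8.33, 8.23 and 8.33 to 7.26, 7.46 and 7.52. DKK1, a secreted inhibitor of Wnt that binds that co-receptor, fell by 0.85 (SE 0.14). FZD2, a Wnt receptor, had a change of -0.85 (SE 0.23), called except without array 1 of 100 nM (adjusted p = 0.0524) and without DMSO array 1 (adjusted p = 0.0505). Of secreted growth factors 3 rose and 4 fell of 20 (35%), a count of 4 called without array 1 of 100 nM. ANGPTL4, an inhibitor of lipoprotein lipase, rose by 1.57 (SE 0.18) from 6.52, 5.78 and 6.40 to 7.76, 8.11 and 7.54. The neurotrophin gene BDNF fell by 1.32 (SE 0.17, adjusted p = 5.91e-05) and the platelet-derived growth factor gene PDGFC by 1.28 (SE 0.26). VEGFA, the main factor of blood vessel growth, was not called at -0.44 (SE 0.18). Of insulin-like growth factor binding and related proteins 3 of 14 rose (21.4%) and 0 fell, the calcium-regulating hormone genes STC1 by 1.18 (SE 0.20) and STC2 by 0.82 (SE 0.11), and CCN2, or connective tissue growth factor, by 0.58 (SE 0.13). Among guidance molecules 1 rose and 6 fell of 34 (20.6%). The Slit receptor gene ROBO1 fell by 1.18 (SE 0.29) and the ephrin gene EFNB3 by 0.87 (SE 0.17), and the semaphorin gene SEMA3E rose by 0.75 (SE 0.16).

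**Figure D4:**
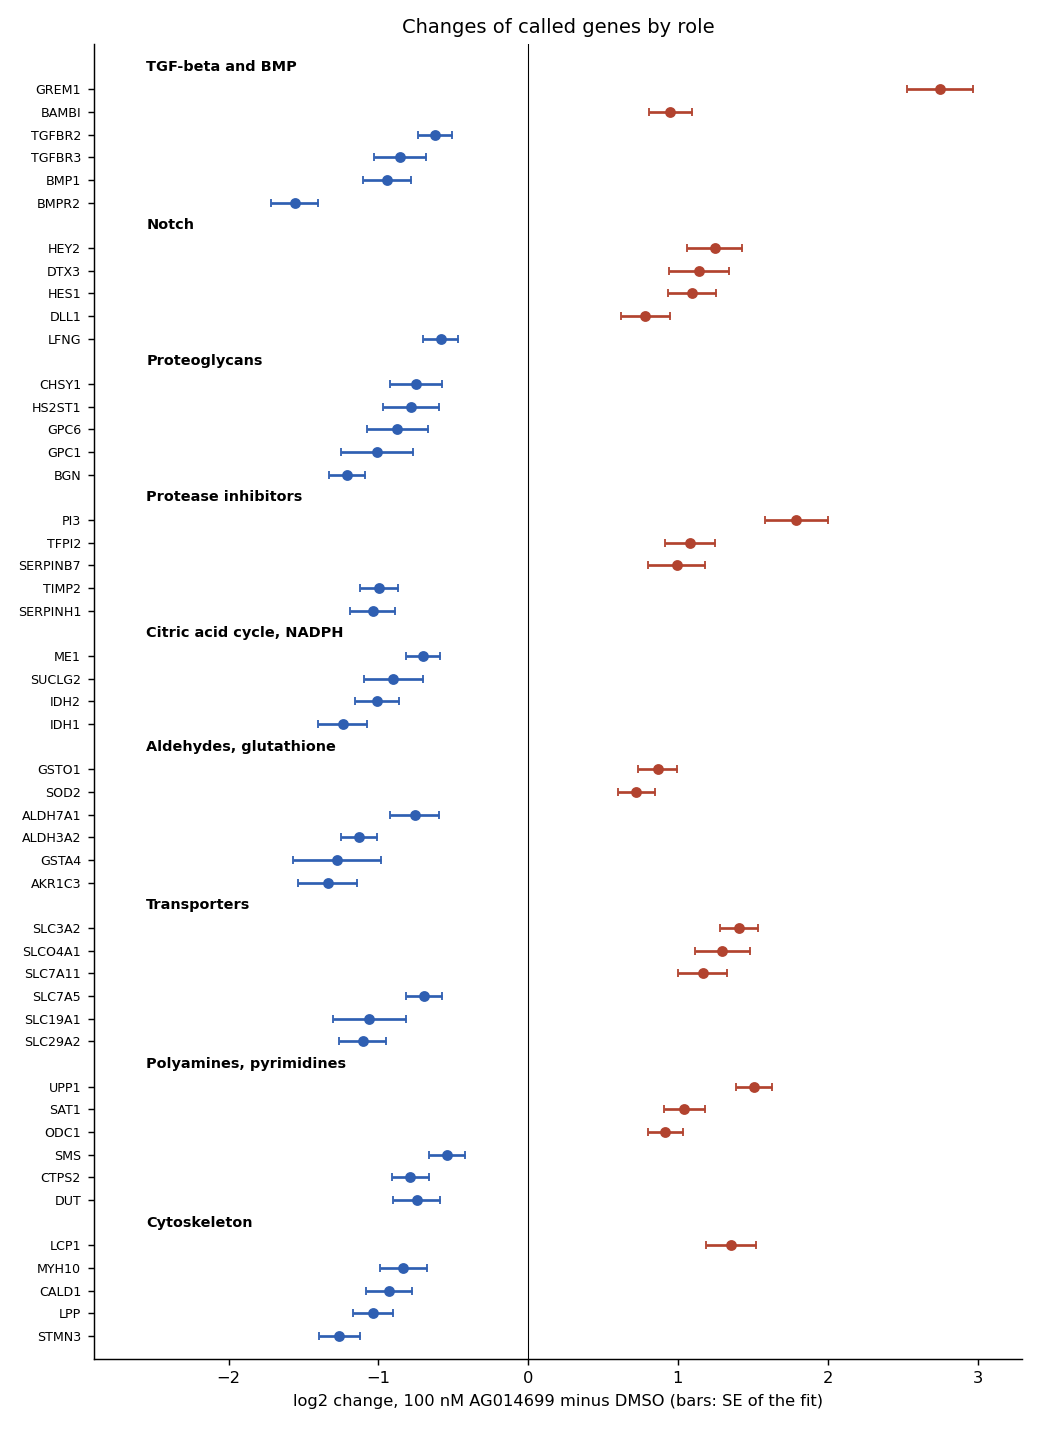
Log2 change from DMSO to 100 nM AG014699 of called genes by role (points) with the SE of the fit (bars, 3 arrays per group); the genes shown are a selection of those named in the text. GREM1 lies highest, at 2.75, and BMPR2 lowest, at -1.56; other called members of these lists, such as ACVR1B, FSTL1 and CHST2, are not drawn.

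Proteoglycans of the cell surface and matrix are proteins with long sulfated sugar chains that hold growth factors. Of 37 measured genes of core proteins and sulfation enzymes 1 rose and 13 fell (37.8% called beside 21.5% of all genes, median -0.34), and the others were not called. The small proteoglycan gene BGN was at 10.70, 10.82 and 10.79 with DMSO and at 9.37, 9.62 and 9.69 at 100 nM, with groups apart, and fell by 1.21 (SE 0.12, adjusted p = 5.42e-06). The glypican genes GPC1, GPC4 and GPC6 fell by 1.01 (SE 0.24), 0.70 (SE 0.17) and 0.87 (SE 0.20). Among enzymes of the chains CHSY1, which extends chondroitin, fell by 0.75 (SE 0.17), and HS2ST1, which sulfates heparan, by 0.78 (SE 0.19). The member that rose was the sulfotransferase gene CHST2, by 0.83 (SE 0.28, adjusted p = 0.0421). Its call ended without array 2 or 3 of 100 nM (adjusted p = 0.11 and 0.159), without DMSO array 1, 2 or 3 (adjusted p = 0.0708, 0.132 and 0.0741), in a fit of the 6 arrays alone (0.0604) and with quantile normalization alone (0.0566). The syndecan genes SDC1 and SDC4 were not called, at -0.41 and -0.38. Among enzymes of mucin-type, N-linked and sialic acid glycosylation 2 rose and 7 fell of 44 (20.5%). The sialyltransferase gene ST3GAL1 rose by 1.16 (SE 0.17) and its relative ST3GAL5, which makes the ganglioside GM3, fell by 0.98 (SE 0.18).

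Cadherins and immunoglobulin-type adhesion molecules had 5 members higher and 8 lower of 33 (39.4%). CDH2, the N-cadherin of mesenchymal cells, was at 11.99, 12.38 and 12.41 with DMSO and at 10.98, 11.03 and 11.51 at 100 nM. DMSO array 1 was its lowest and treated array 3 its highest, the groups stayed apart, and it fell by 1.09 (SE 0.17, adjusted p = 0.000445). The protocadherin gene PCDHB2 fell by 1.08 (SE 0.13). MCAM, or CD146, was undetected at 100 nM and at least 1.26-fold lower. NCAM1, the neural cell adhesion molecule, rose by 1.14 (SE 0.18, adjusted p = 0.000487) from 5.86, 6.10 and 6.12 to 6.77, 7.50 and 7.21, and CADM1 rose by 0.95 (SE 0.13).

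Inhibitors of proteases were called in both directions. Of 19 measured 7 rose and 5 fell (63.2% called beside 21.5% of all genes, median 0.33). PI3, or elafin, an inhibitor of neutrophil elastase, was at 8.88, 8.79 and 8.70 with DMSO and at 10.48, 10.85 and 10.41 at 100 nM. The groups did not overlap, and it rose by 1.79 (SE 0.21, adjusted p = 3.08e-05). TFPI2, an inhibitor of plasmin and related proteases, rose by 1.08 (SE 0.17), SERPINB7 by 0.99 (SE 0.19) and CSTB, an inhibitor of lysosomal cathepsins, by 0.57 (SE 0.11). TIMP2, which inhibits matrix metalloproteinases, fell by 1.00 (SE 0.13, adjusted p = 6.73e-05) from 10.76, 10.69 and 10.63 to 9.83, 9.67 and 9.59. SERPINH1, which is not an inhibitor in function but the collagen chaperone HSP47, fell by 1.04 (SE 0.15). Among the proteases outside the MMP family 6 rose and 9 fell of 39 (38.5%). ADAMTS9, a proteoglycan-cutting protease, rose by 1.67 (SE 0.19), the lysosomal cathepsin gene CTSL by 0.77 (SE 0.15) and PLAUR, the urokinase receptor, by 0.87 (SE 0.19), while cathepsin C, CTSC, fell by 0.74 (SE 0.15). PLAU, the urokinase gene, was not called at 0.14 (SE 0.14).

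Receptors of inflammation moved in both directions. In the tumour necrosis factor (TNF) family 6 rose and 4 fell of 28 (35.7%). LTA, or lymphotoxin alpha, was at 5.61, 6.33 and 5.86 with DMSO and at 7.32, 7.80 and 7.45 at 100 nM and rose by 1.59 (SE 0.22, adjusted p = 0.000147). TRAF1, an adaptor of TNF receptors, rose by 1.24 (SE 0.20) and the ligand gene TNFSF15 by 0.81 (SE 0.19). The receptor genes TNFRSF21 and TNFRSF1A fell by 1.16 (SE 0.15) and 0.65 (SE 0.15). The largest fall of the list was that of a ligand gene, by 1.52 (SE 0.30). Of receptors for microbial patterns and inflammasome genes 5 rose and 5 fell of 19 (52.6%). The count became 6 without array 2 of 100 nM, 5 without DMSO array 1 and 6 without DMSO array 2. LY96, the MD-2 partner of the endotoxin receptor, rose by 1.83 (SE 0.34) from 5.87, 6.24 and 6.14 to 7.88, 7.34 and 8.52, with treated arrays that spanned more than 1 log2 unit but stayed above DMSO. CD14, its co-receptor, went the other way and fell by 1.03 (SE 0.14, adjusted p = 0.000129) from 8.83, 8.77 and 8.92 to 7.53, 8.02 and 7.89. IRAK2, a kinase of that pathway, rose by 0.86 (SE 0.15), and GSDMD, the pore-forming protein of pyroptosis, fell by 0.72 (SE 0.15).

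Cytokine receptors and their regulators had 5 members higher and 6 lower of 41 (26.8%). Members called numbered 5 without array 2 of 100 nM, 7 without DMSO array 1 and 6 without DMSO array 2. IL7R, the interleukin 7 receptor, was at 10.23, 10.14 and 10.10 with DMSO and at 8.60, 8.90 and 8.89 with the drug and fell by 1.36 (SE 0.15, adjusted p = 2.05e-05), more than the gap between any 2 arrays of 1 group. IL1RAP, the shared chain of interleukin 1 receptors, fell by 1.24 (SE 0.27), SOCS1, a feedback inhibitor, by 0.69 (SE 0.17), and IL20RB, a chain of the receptor for IL24, rose by 0.70 (SE 0.15). Of G protein coupled receptors and RGS proteins 6 rose and 8 fell of 35 (40%). The bradykinin receptor gene BDKRB1 fell by 1.27 (SE 0.22) and the orphan receptor gene GPRC5A, a relative of GPRC5C, by 0.95 (SE 0.13). RGS2, which shortens G protein signals, rose by 1.01 (SE 0.15). In the adenosine pathway NT5E, or CD73, which makes adenosine outside the cell, was at 7.95, 7.92 and 7.94 with DMSO and at 9.30, 9.51 and 9.44 at 100 nM. The arrays of each group lay close together, and it rose by 1.48 (SE 0.13, adjusted p = 1.64e-06). ADORA2A, an adenosine receptor, rose by 0.70 (SE 0.14), and ADA, which breaks adenosine down, fell by 0.71 (SE 0.14). Another adenosine receptor gene fell by 1.03 (SE 0.24), and a further one was not called at 0.08. The list of nucleotide enzymes and channels as a whole had 3 higher and 1 lower of 17 (23.5%). Leaving out 1 array gave a count of 2 without array 2 of 100 nM and 2 without DMSO array 3. Ion channels had 4 higher and 3 lower of 34 (20.6%), with the calcium-activated potassium channel gene KCNMA1 falling by 1.42 (SE 0.21). The list had 4 called members without array 1 of 100 nM, 3 without array 2 of 100 nM and 4 without DMSO array 2.

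More genes of the contractile cytoskeleton fell than rose, and most were not called. Of 54 genes of actin, myosin, tropomyosin and focal contacts 2 rose and 13 fell (27.8% called beside 21.5% of all genes, median -0.18). LPP, a focal contact protein, fell by 1.04 (SE 0.13, adjusted p = 6.37e-05) from 10.31, 10.51 and 10.38 to 9.12, 9.54 and 9.43. The caldesmon gene CALD1, the myosin light chain gene MYL9 and the myosin heavy chain gene MYH10 fell by 0.93 (SE 0.15), 0.85 (SE 0.18) and 0.83 (SE 0.16). LCP1, an actin bundler of blood cells, was detected on 2 of 3 DMSO arrays and rose by 1.36 (SE 0.17). The actin genes ACTB and ACTG1 were not called, at -0.03 and -0.07. Among tubulins, microtubule proteins and filaments 2 rose and 7 fell of 34 (26.5%). STMN3, which takes microtubules apart, fell by 1.26 (SE 0.14) and the tubulin gene TUBB by 0.89 (SE 0.16), and the neuronal filament gene INA rose by 1.12 (SE 0.19).

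Among enzymes that detoxify aldehydes and use glutathione falls outnumbered rises, and most members were not called. Of 37 measured 2 rose and 12 fell (37.8% called beside 21.5% of all genes, median -0.39). ALDH3A2, which oxidizes fatty aldehydes, was at 9.13, 9.21 and 9.04 with DMSO and at 8.08, 7.90 and 8.03 at 100 nM. The groups were apart, and it fell by 1.13 (SE 0.12, adjusted p = 1.29e-05). The steroid and prostaglandin reductase gene AKR1C3 fell by 1.34 (SE 0.20) and was detected on 1 of 3 treated arrays. GSTA4, a glutathione transferase for lipid aldehydes, fell by 1.28 (SE 0.29) and ALDH7A1 by 0.76 (SE 0.16). The 2 members that rose were GSTO1 by 0.86 (SE 0.13) and the mitochondrial superoxide dismutase gene SOD2 by 0.72 (SE 0.12). ALDH2 and ALDH1A3 were not called, at -0.30 and 0.12.

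Genes of the citric acid cycle, pyruvate handling and mitochondrial carriers had 3 members higher and 11 lower of 41 (34.1%, median -0.20). This count was 9 without array 1 of 100 nM, 8 without DMSO array 2 and 7 without DMSO array 3. IDH1, the cytosolic isocitrate dehydrogenase that yields NADPH, was at 10.87, 10.84 and 10.65 with DMSO and at 9.84, 9.29 and 9.51 at 100 nM, and its groups were apart. It fell by 1.24 (SE 0.16, adjusted p = 9.29e-05). Its mitochondrial relative IDH2 fell by 1.01 (SE 0.15), the malic enzyme gene ME1 by 0.70 (SE 0.11) and the succinyl-CoA ligase gene SUCLG2 by 0.90 (SE 0.20). The subunits of the NAD-linked enzyme, IDH3A, IDH3B and IDH3G, were not called, at -0.10, 0.28 and -0.11. SLC25A25, a carrier of the same kind as SLC25A24, rose by 0.74 (SE 0.13). Fatty acid oxidation and peroxisome genes had 1 higher and 7 lower of 38 (21.1%). With an array left out the calls numbered 5 without array 1 of 100 nM, 5 without DMSO array 1 and 3 without DMSO array 3. CPT1A and CPT2, the carnitine palmitoyltransferases, were not called, at 0.22 and -0.34.

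Transporters had 6 members higher and 11 lower of 43 (39.5%, median -0.25). SLC3A2, the heavy chain shared by several amino acid transporters, was at 10.73, 10.61 and 10.85 with DMSO and at 12.17, 12.12 and 12.11 with the drug and rose by 1.41 (SE 0.13, adjusted p = 1.92e-06). Of its light chains SLC7A11, which imports cystine, rose by 1.17 (SE 0.16) and SLC7A5, which imports leucine, fell by 0.70 (SE 0.12, adjusted p = 0.000764), from 11.23, 11.35 and 11.26 to 10.43, 10.67 and 10.66. Both light chains had groups that did not overlap. The organic anion transporter gene SLCO4A1 rose by 1.30 (SE 0.18). SLC29A2, a nucleoside transporter, and SLC19A1, the reduced folate carrier, fell by 1.10 (SE 0.16) and 1.06 (SE 0.24).

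Nucleotide synthesis had 1 member higher and 5 lower of 45 (13.3%). The count became 3 without DMSO array 3. UPP1, which splits uridine, was at 10.76, 10.56 and 10.82 with DMSO and at 12.07, 12.24 and 12.36 at 100 nM and rose by 1.51 (SE 0.12, adjusted p = 7.02e-07). CTPS2, which makes CTP, and DUT, which removes dUTP, fell by 0.79 (SE 0.12) and 0.74 (SE 0.16). TYMS, the thymidylate synthase gene, was not called at -0.06 (SE 0.14). Among polyamine genes 3 rose and 2 fell of 17 (29.4%). The first enzyme of synthesis, ODC1, rose by 0.92 (SE 0.12, adjusted p = 6.82e-05) from 12.59, 12.49 and 12.53 to 13.41, 13.47 and 13.48, and the acetylating enzyme SAT1, which starts breakdown and export, by 1.04 (SE 0.14). The spermine synthase gene SMS fell by 0.54 (SE 0.12) and the oxidase gene PAOX by 0.67 (SE 0.11).

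Lipid enzymes were called in both directions. Of sterol efflux, lipoprotein and LXR target genes 2 rose and 6 fell of 25 (32%). LPCAT3, which puts unsaturated chains into phospholipids, fell by 0.89 (SE 0.16) and CAV1, the caveolin of surface pits, by 0.91 (SE 0.16). APOE was undetected with DMSO and at least 1.46-fold higher, though detected on 2 of 3 treated arrays. The 2 probes of ABCG1 were called in opposite directions. The brighter changed by 1.20 (SE 0.17) and the mean of the probes by -0.40 (adjusted p = 0.0147), so no direction is given. Phospholipid and sphingolipid enzymes had 3 higher and 7 lower of 49 (20.4%). Members called numbered 6 without array 3 of 100 nM. SPHK1, which makes the signalling lipid sphingosine 1-phosphate, was at 6.90, 6.67 and 6.74 with DMSO and at 9.05, 8.61 and 8.23 at 100 nM and rose by 1.86 (SE 0.19, adjusted p = 6.12e-06). The phospholipase gene PLA2G4C rose by 1.62 (SE 0.19). PLPP3, which removes phosphate from lipid signals outside the cell, fell by 1.14 (SE 0.15), and LPIN1, a phosphatidic acid phosphatase, by 0.81 (SE 0.11).

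**Figure D5:**
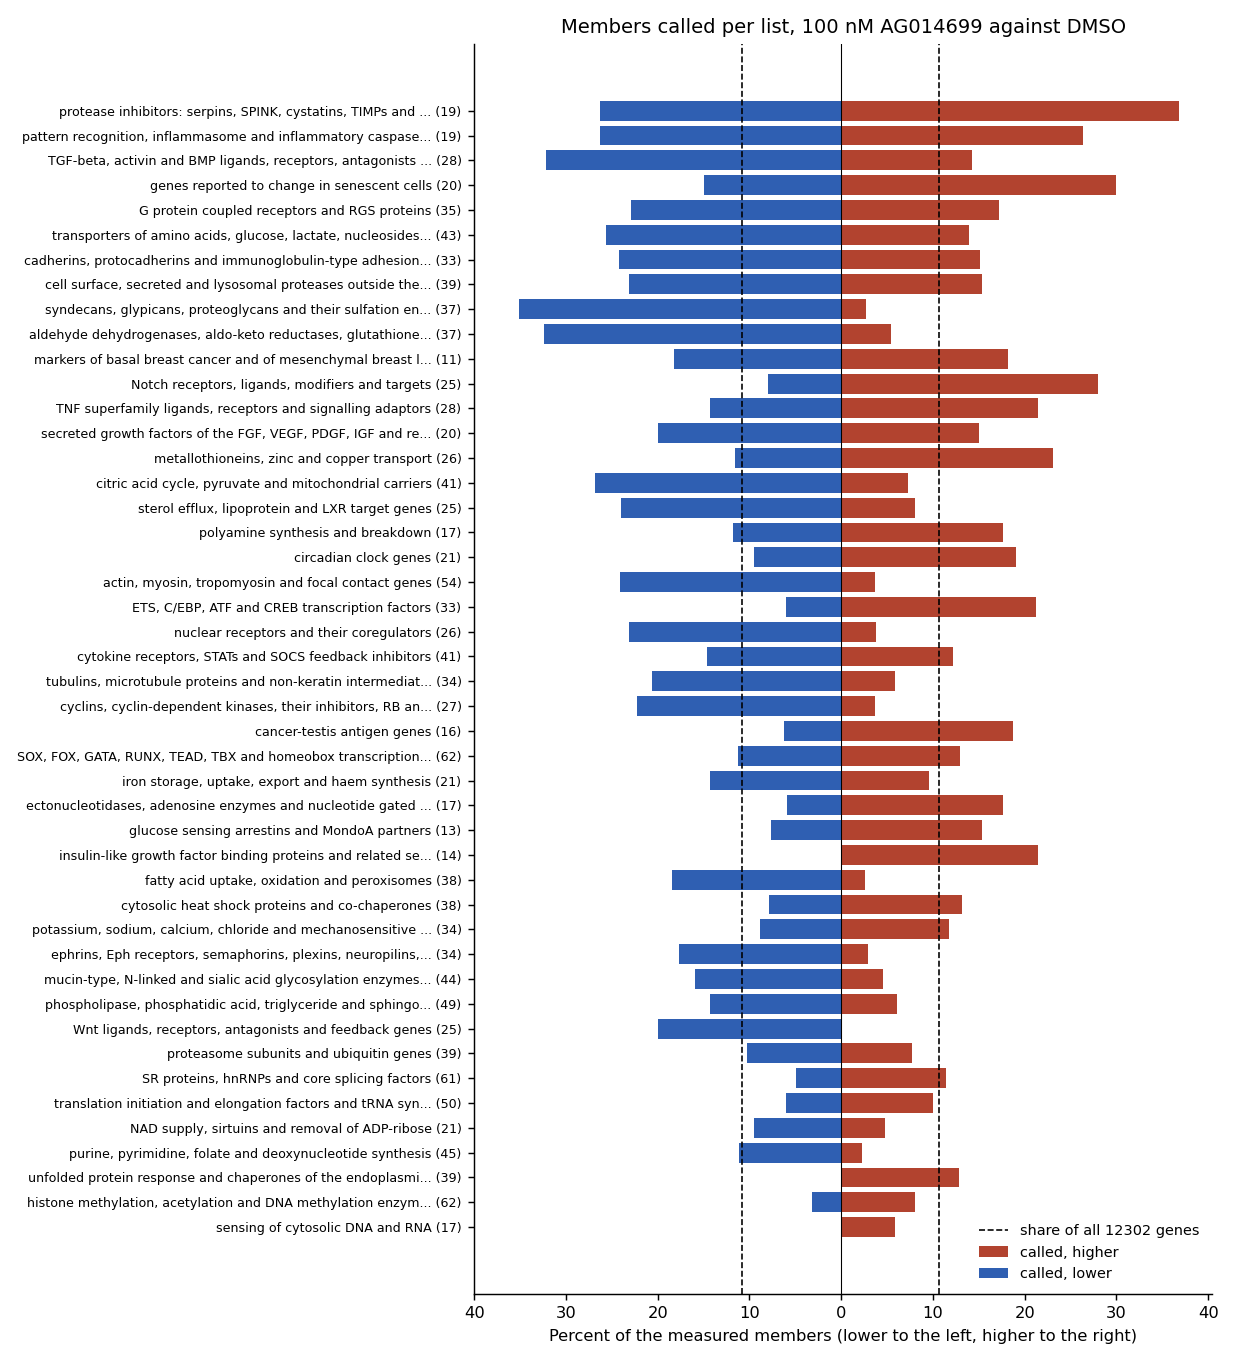
Percent of the measured members of each list that were called lower (blue, to the left) and higher (red, to the right), for lists described here with at least 10 measured members, whose number stands in parentheses. Dashed lines mark the shares of all 12302 genes, 10.8% lower and 10.7% higher; bars of proteoglycan and aldehyde genes reach beyond the line on the lower side and stay inside it on the higher side.

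Metal and stress genes were mixed. Metallothioneins, zinc and copper genes had 6 higher and 3 lower of 26 (34.6%). Leaving out 1 array gave a count of 4 without DMSO array 2. MT2A, a metallothionein, rose by 0.97 (SE 0.15, adjusted p = 0.000345) from 11.48, 11.35 and 11.30 to 12.16, 12.52 and 12.37, and the zinc transporter gene SLC30A3 by 0.99 (SE 0.15). Among iron and haem genes 2 rose and 3 fell of 21 (23.8%). HMOX1, which breaks haem down, rose by 0.97 (SE 0.16) and FECH, which completes it, fell by 1.01 (SE 0.23), and FTL and TFRC, ferritin light chain and transferrin receptor, were not called at -0.01 and -0.07. Cytosolic heat shock genes had 5 higher and 3 lower of 38 (21.1%). The list had 4 called members without DMSO array 1 and 5 without DMSO array 3. The inducible HSPA6 rose by 1.89 (SE 0.23, adjusted p = 4.54e-05), from 6.25, 5.89 and 6.14 to 8.08, 7.97 and 7.91, with groups far apart. HSPA1A and HSPA1B, near-identical copies whose probes may share signal, were not called at 0.03 and 0.02. Of the unfolded protein response 5 rose and 0 fell of 39 (12.8%). This count was 3 without array 3 of 100 nM and 3 without DMSO array 3. PPP1R15A, a phosphatase subunit that restarts translation after stress, rose by 1.58 (SE 0.11, adjusted p = 1.18e-07) from 11.20, 10.97 and 11.08 to 12.69, 12.69 and 12.63, while the chaperone gene HSPA5 was at -0.25 (SE 0.15) and not called.

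Housekeeping machineries had shares of called members under the 21.5% of all genes. Of proteasome and ubiquitin genes 3 rose and 4 fell of 39 (17.9%). With an array left out the calls numbered 4 without array 2 of 100 nM, 4 without DMSO array 1 and 4 without DMSO array 3. Of translation factors and tRNA synthetases 5 rose and 3 fell of 50 (16%). The count became 4 without array 1 of 100 nM, 5 without DMSO array 2 and 4 without DMSO array 3. Splicing factors had 7 members higher and 3 lower of 61 (16.4%). Members called numbered 6 without DMSO array 3. Chromatin enzymes had 5 members higher and 2 lower of 62 (11.3%). Leaving out 1 array gave a count of 4 without DMSO array 3. EEF1A2, an elongation factor of muscle and nerve, fell by 0.91 (SE 0.15). CLK1, a kinase of splicing factors, rose by 0.96 (SE 0.17) and MBNL2, a splicing regulator, fell by 1.28 (SE 0.27). HDAC9, a histone deacetylase, rose by 1.15 (SE 0.25) and EP300, a histone acetyltransferase, by 0.99 (SE 0.23). EZH2, the methyltransferase of repressed chromatin, was not called at 0.19 (SE 0.21).

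Among transcription factors of lineage 8 rose and 7 fell of 62 (24.2%). SOX9, a factor of cartilage and progenitor cells, was at 7.82, 8.02 and 7.66 with DMSO and at 6.10, 6.64 and 6.24 with the drug and fell by 1.51 (SE 0.17, adjusted p = 1.89e-05). FOXQ1, a forkhead factor, rose by 1.61 (SE 0.16, adjusted p = 5.87e-06) from 5.97, 6.04 and 5.98 to 7.54, 7.62 and 7.66. TBX2, a T-box repressor, was detected on 2 of 3 DMSO arrays and rose by 1.63 (SE 0.26). ETS, C/EBP, ATF and CREB factors had 7 higher and 2 lower of 33 (27.3%), with MAFF, a small partner of bZIP factors, rising by 1.24 (SE 0.19) and CEBPD falling by 0.83 (SE 0.14). Of nuclear receptors and coregulators 1 rose and 6 fell of 26 (26.9%), among them RXRA, the shared partner of many receptors, which fell by 0.69 (SE 0.13), and ARNT, the partner of the hypoxia and dioxin factors, by 0.99 (SE 0.19). Of clock genes 4 rose and 2 fell of 21 (28.6%). The list had 3 called members without DMSO array 2. CIART, a repressor of the clock, rose by 1.97 (SE 0.21, adjusted p = 1.41e-05) from 6.22, 6.39 and 6.34 to 8.35, 8.41 and 8.10, and the clock activator RORA by 1.27 (SE 0.17), while PER1, PER2 and BMAL1 were not called at 0.33, 0.45 and 0.28.

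Cell cycle regulators had 1 member higher and 6 lower of 27 (25.9%). This count was 3 without array 2 of 100 nM, 4 without DMSO array 1 and 4 without DMSO array 3. The mitotic cyclin gene CCNB1 fell by 0.72 (SE 0.13, adjusted p = 0.00145) from 10.73, 10.52 and 10.70 to 9.87, 9.78 and 10.14, and CDKN2A, the gene of the inhibitor p16, by 0.79 (SE 0.17). CCND1 and CCNA2 were not called, at -0.21 and -0.24. Of genes reported to change in senescent cells 6 rose and 3 fell of 20 (45% beside 21.5% of all genes, median -0.04). The falls were LMNB1, TIMP2 by 1.00 (SE 0.13) and a protease gene by 0.79 (SE 0.24). LMNB1, the lamin B1 gene, was at 9.20, 9.30 and 8.96 with DMSO and at 8.17, 8.49 and 8.44 at 100 nM and fell by 0.79 (SE 0.16). The secreted peptide gene VGF rose by 1.76 (SE 0.16, adjusted p = 3.26e-06) and the stress hormone gene GDF15 by 0.96 (SE 0.20). HMGB1 and HMGB2, chromatin proteins lost in senescence, were not called, at -0.49 and -0.11.

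The drug's target and genes near it were looked at apart. PARP1 was at 12.35, 12.56 and 12.61 with DMSO and at 11.56, 12.17 and 12.19 at 100 nM, with treated array 1 lowest. Its change of -0.53 (SE 0.15, adjusted p = 0.0212) was not called without array 1 of 100 nM (adjusted p = 0.0745), without DMSO array 2 (adjusted p = 0.0676), without DMSO array 3 (adjusted p = 0.0764), without the arrays numbered 1 of all groups (adjusted p = 0.0642) or in a fit of the 6 arrays alone (adjusted p = 0.101). PARP2 and PARP3 were not called, at 0.14 (SE 0.15) and -0.10 (SE 0.11). Genes of NAD supply, sirtuins and removal of ADP-ribose had 1 member higher and 2 lower of 21 (14.3%, beside 21.5% of all genes). With an array left out the calls numbered 1 without array 1 of 100 nM, 1 without DMSO array 2 and 1 without DMSO array 3. NAMPT, the rate-limiting enzyme of NAD salvage, was not called at 0.36 (SE 0.14, adjusted p = 0.0791). Of genes that sense DNA and RNA in the cytosol 1 rose and 0 fell of 17 (5.88%). The count became 3 without array 1 of 100 nM, 2 without array 2 of 100 nM and 2 without array 3 of 100 nM. CGAS, the DNA sensor, was at 0.06 (SE 0.13), and STING1 and TBK1, which act after it, were at 0.46 and 0.39, all 3 not called. Of arrestins and enzymes of glucose sensing and the pentose phosphate path 2 rose and 1 fell of 13 (23.1%), among them TKT, or transketolase, which fell by 0.60 (SE 0.13), while TXNIP was at 0.14 (SE 0.12) and not called. Of cancer-testis antigen genes 3 rose and 1 fell of 16 (25%). Members called numbered 2 without array 2 of 100 nM. Markers of basal and mesenchymal breast lines had 2 higher and 2 lower of 11 (36.4%). Receptors and luminal markers had 0 higher and 3 lower of 7 (42.9%), with the luminal keratin gene KRT8 at 9.06, 8.99 and 8.81 with DMSO and at 8.08, 7.95 and 8.06 at 100 nM, a fall of 0.92 (SE 0.17).

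The arrays with 10 nM AG014699 place the changes by dose. Of the 550 genes called at least 2-fold at 100 nM, 508 had a 10 nM mean between the DMSO and the 100 nM mean, 17 went beyond the 100 nM mean, and 25 lay on the far side of DMSO. These genes were chosen for a wide gap between the DMSO and 100 nM means, inside which a 10 nM mean easily falls. The same share over all genes was not counted. The comparisons of the doses also share arrays, so this placement is a description only and shows no graded response. In the test of 100 against 10 nM, 1179 genes were called (9.58%), and 662 without the arrays numbered 1 of all groups. GREM1 was at 7.82, 7.59 and 7.45 at 10 nM, between the other groups, and 100 nM stood above 10 nM by 1.70 (adjusted p = 0.000244). SLC25A24 was at 9.79, 9.91 and 10.22 at 10 nM, close to its 100 nM arrays, a difference of 0.06 (SE 0.24, adjusted p = 0.902). NT5E was at 9.26, 9.19 and 9.23 at 10 nM, above all DMSO arrays, with a difference between doses of 0.19 (SE 0.13, adjusted p = 0.405). DHRS3 and COL8A1 had 10 nM arrays near those of DMSO, at 9.17, 8.84 and 9.04 and 7.33, 7.43 and 7.71, and 100 nM stood below 10 nM by 1.75 and 1.91 log2 units (adjusted p = 6.25e-05 and 9.11e-06). CD14 read 9.29, 9.22 and 9.01 at 10 nM, above its DMSO arrays, while 100 nM was below them. Its difference of 0.33 between 10 nM and DMSO was not called (adjusted p = 0.335).

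Of 7103 probes without a single gene name 328 were called (4.62%), 222 higher and 106 lower, with p adjusted over those probes. Leaving out array 1 or 2 of 100 nM gave 202 and 204 calls, and leaving out DMSO array 1, 2 or 3 gave 208, 186 and 170. Close to the threshold the gene calls depended on small differences. KIF2C, a mitotic kinesin, was called at an adjusted p that rounds to 0.05 with a change of 0.35 (SE 0.12), and SLC27A5, a bile acid enzyme, just missed at 0.0501 with -0.47 (SE 0.16). PDRG1 lay just inside 2-fold and BROX just outside it, and both changes round to 1.00 on the log2 scale.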

How the data were processed

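Total RNA of each sample was hybridised to Illumina HumanHT-12 v4.0 bead arrays, per the labels' protocols. The authors deposited a table of bead intensity per probe, with a detection p-value for each probe and array, per the file headers; the software is not stated there. The medians of the 6 arrays compared were 114 to 115; whether the intensities had been matched between arrays before deposit is not given in the sources used here. The authors also deposited a table of log2 values, which equal the log2 signal centred per probe within 1e-07 over 13867 of 24245 probes without blanks.

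From the intensities, neqc of limma 3.58.1 (R 4.3.3, statmod 1.5.0) subtracted a background inferred from the detection p-values, added an offset of 16, quantile normalized and took log2. Probes with a detection p under 0.05 on at least 3 of 15 arrays were kept (23680), and of these 16577 had 1 gene symbol in the platform annotation. The brightest probe stood for each of 12302 genes. A limma fit to the 5 groups gave changes, with Benjamini-Hochberg adjustment over all genes; no array was dropped. For a gene undetected on all arrays of a group the fold is a lower limit, against the lowest detected signal of each array or the gene's own signal where that is higher. The 3 arrays per group limit the precision.

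Named genes are a selection from groups set by rule, which held 677 genes. The groups were the 30 largest rises and falls without overlap, and up to 8 called members in each direction and 4 uncalled members of each of 49 lists. Further groups were the 15 largest limits of genes detected in 1 group, called genes among the 200 brightest, genes next to the thresholds, and PARP1, PARP2 and PARP3. Markers of the line and of other cell types stand beside them, as do GPC4, SLC7A5 and CXCL8, chosen after their values were seen. The members and the lists were chosen with earlier results of these data known. The result of 1 of the lists is not reported here. Promoter windows came from RefSeq (GRCh38.p14), matched by symbol. The limma fit was tested on simulated data with planted changes. Alternatives covered background correction, normalization, the deposited log2 values, the filter on dim probes, which probe stands for a gene, which arrays enter the fit, weights, the variance model, a replicate block and leaving out each array.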

Additional observations from a re-analysis of the deposited data

How the results depend on the processing

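The count of genes called between 100 nM AG014699 and DMSO, 2648, stayed within 1.5 times under all 19 alternatives, from 1862 in a fit of the 6 arrays alone to 3075 with the replicate block, and its split by direction did so too. Leaving out 1 array gave 1893 to 2448 genes, 936 to 1212 higher and 954 to 1236 lower, with 539 to 656 of at least 2-fold. The 2-fold count of 550 fell to 251 with normexp and an offset of 50, to 193 with quantile normalization alone, to 191 with the signals as deposited and to 175 with the authors' log2 values, where fewer genes were tested (8862); the cause was not tested. Between the doses leaving out 1 array gave 815 to 1126 calls, and leaving out the arrays numbered 1 of all groups gave 662 against 1179; the cause was not tested beyond the smaller number of arrays. Probes without a single gene name gave 170 to 238 calls with 1 array left out and 514 with quantile normalization alone, and the cause of the latter was not tested. Genes detected in 1 group only numbered 82 at 100 nM and 57 with DMSO at a detection limit of 0.05 for both groups, a looser limit by construction. Of 189 called genes named here 180 were called under each of the 19 alternatives that tested them, and the other 9 were ACVR1B, CHST2, FSTL1, FZD2, ITGAM, KIF2C, LEP, PARP1 and PHGDH. The mean of the probes turned ABCG1 to -0.40 on the log2 scale, since its probes oppose each other. The number of called members moved by over 1.5 times in 12 of 49 lists in the fit of the 6 arrays, in 15 without the arrays numbered 1 and in 3 to 13 when 1 array was left out. With the replicate number as a block 3075 genes were called and 1472 between the doses. Same-numbered arrays of the groups correlated in their deviations at 0.171, -0.0737 and 0.24, and arrays of different numbers at -0.296 to 0.134. The main fit did not pair the samples by number, and whether same-numbered arrays share variation was not tested. A block for array or slide was not run, since the headers give none. Dim genes are limited by signal over background, and their changes are compressed by the offset.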
